A study of Mus musculus with 18 samples.

Results

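Glycolysis and the response to low oxygen were followed in F9 cells, a mouse embryonal carcinoma line, through 38 named genes. They cover glucose uptake and lactate export, the enzymes of the glycolytic chain, the enzymes that set its flux, the hypoxia-inducible factor (HIF) system and further genes that HIF is known to induce. Of the 38, 35 were among the 19938 genes measured on the arrays; Gapdh, Gpi1 and Eno1 were not analysed here, since no probe set carried their symbol alone. Cells received all-trans retinoic acid (ATRA), which activates every retinoic acid receptor (RAR), or an agonist of 1 receptor type, namely RARα (BMS753), RARβ (BMS641) or RARγ (BMS961). The agonists were given at 1 µM, except BMS961 at 0.1 µM, and RNA was taken after 2, 6, 24 and 48 h, with 1 array for each agonist and time. The controls were 2 arrays of cells given the ethanol vehicle for 48 h. All 18 arrays come from the same cell line, and nothing in the labels says whether the vehicle arrays come from separate cultures.

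Glycolysis splits glucose into pyruvate in the cytoplasm, and pyruvate can then be reduced to lactate or passed to the mitochondria. When oxygen is low, the HIF alpha subunits escape hydroxylation and degradation, pair with ARNT and bind short DNA elements near genes for glucose transporters, glycolytic enzymes and vessel growth factors. Embryonal carcinoma cells rely heavily on glycolysis, and retinoic acid drives F9 cells towards primitive endoderm.

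The core of a HIF binding element reads ACGTG or GCGTG, so the DNA just before the gene starts was searched for these letters on both strands. RefSeq windows (build GRCm38.p6) were at hand for 31 of the 35 genes, and 19 of the 31 (61.3%) held ACGTG or its reverse CACGT in the 250 bases before a start, against 18.5% of 27025 genes in the table and 20.9% of the 15614 of them on the arrays. GCGTG or its reverse CACGC was present in 22 of the 31 (71.0%), against 30.9% of all genes in the table and 39.4% of those on the arrays. A gene counted if any of its windows matched, and the 31 genes had 45 windows, against 32851 for the 27025. By window, 22 of 45 held ACGTG or CACGT, against 16.6% of all windows. GCGTG or CACGC was in 24 of 45, against 28.2%. The windows of the 35 genes were also richer in G and C, with a median of 61.6% against 52.4% for all windows, whose part in these shares was not tested. A match describes the sequence and does not show that a factor binds. Printed here are the windows of 4 genes that fell late in ATRA treatment: the lactate exporter Slc16a3, the enzymes Ldha and Pgam1, and the kinase Pdk1. Each is 5′ to 3′ and ends at the base before the start, with the matches in capitals.
Slc16a3: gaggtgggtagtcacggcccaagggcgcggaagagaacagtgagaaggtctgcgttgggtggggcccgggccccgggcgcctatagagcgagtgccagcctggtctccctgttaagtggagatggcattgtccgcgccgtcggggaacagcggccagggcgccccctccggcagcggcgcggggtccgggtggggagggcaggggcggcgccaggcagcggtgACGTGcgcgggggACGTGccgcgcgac
Ldha: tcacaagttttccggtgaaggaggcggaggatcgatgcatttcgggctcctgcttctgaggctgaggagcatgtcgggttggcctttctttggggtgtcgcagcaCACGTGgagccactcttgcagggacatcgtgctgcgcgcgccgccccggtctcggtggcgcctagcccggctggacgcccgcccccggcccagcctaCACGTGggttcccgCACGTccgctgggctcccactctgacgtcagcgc
Pgam1: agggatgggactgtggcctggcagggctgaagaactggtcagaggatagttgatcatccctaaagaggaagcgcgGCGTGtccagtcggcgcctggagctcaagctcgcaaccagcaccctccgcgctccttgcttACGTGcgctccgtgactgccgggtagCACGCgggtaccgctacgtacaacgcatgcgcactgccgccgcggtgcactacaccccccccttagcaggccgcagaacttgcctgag
Pdk1: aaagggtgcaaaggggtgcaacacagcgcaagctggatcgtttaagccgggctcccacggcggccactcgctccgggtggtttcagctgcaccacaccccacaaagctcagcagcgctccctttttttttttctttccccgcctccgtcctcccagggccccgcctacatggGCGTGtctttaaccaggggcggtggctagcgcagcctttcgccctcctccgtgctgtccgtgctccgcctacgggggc
The Slc16a3 window (chr11:120948817-120949066, plus strand) holds ACGTG at -27 and at -14, counted from the start to the first base of the match. The Ldha window (chr7:46845554-46845803, plus strand) holds 5 matches, first bases at -145, -144, -48, -47 and -34; CACGT and ACGTG overlap in the palindrome CACGTG at -145 and again at -48. Pgam1 (chr19:41911621-41911870, plus strand) has GCGTG at -175, ACGTG at -114 and CACGC at -88. Pdk1 (chr2:71872974-71873223, plus strand) has GCGTG at -78 and no ACGTG. Another listed start gave 1 match for Ldha (CACGC at -59) and 0 for Pdk1. Pkm and Aldoa, which also fell, each had 1 window with 0 matches and others with CACGT.

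Values are the authors' log2 levels, on which a difference of 1 is 2-fold, and levels of different genes cannot be ranked against each other. Medians of the 18 arrays over all probe sets lay between 5.31 and 5.47. The embryonal carcinoma list was bright as a median, at 10.64 (ATRA 48 h) to 11.94, with Pou5f1 between 11.80 and 12.21 and Lin28a between 7.75 and 9.44. The median of 12 primitive and parietal endoderm genes was 10.36 on the ATRA 48 h array and 9.43 on the BMS961 48 h array, against 6.16 to 7.76 on the other 16, and that of 8 fibroblast genes was 5.11 to 6.07. For 7 genes (Hk1, Pgk1, Pgam1, Pkm, Bnip3, Bnip3l and Higd1a) the brightest probe set has neighbouring probe set numbers from another chromosome and may also read a near-identical copy. Their values are uncertain in that respect, most of all for Hk1 and Higd1a. For Hk1 the probe set used had a mean level of 12.62, and the one with neighbours on its own chromosome 7.60. For Higd1a these means were 7.71 and 6.04.

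The vehicle arrays differed from each other in many of these genes. Replicate 1 was lower than replicate 2 in 29 of the 35, with a median difference of -0.60 (all genes 0.05). In 11 genes the difference was at least 2-fold downwards, a size that 1.78% of all genes reached, and in 1, the glucose transporter Slc2a3, it was at least 2-fold upwards (1.56% of all genes). It was largest for Bnip3 (-2.30), a mitochondrial protein of mitophagy and cell death, followed by Slc16a3 (-1.94), Ndrg1 (-1.57), Aldoc (-1.52), Ldha (-1.44) and Pfkl (-1.42). Of the 13 glycolytic enzymes 11 were lower in replicate 1, with a median of -0.79. Over 12146 probe sets without a gene name, deviations on vehicle replicate 1 had a mean correlation of 0.322 with those of the ATRA arrays and of -0.189 with those of the 12 BMS arrays; for replicate 2 these were -0.262 and 0.037. Marker levels differed too: the median of the 12 endoderm genes was 7.25 on replicate 1 and 6.16 on replicate 2, with Dab2 at 8.20 and 5.51, and that of 12 genes of the ATF4 stress response was 10.68 and 10.35, with Chac1 at 10.84 and 9.34. The ATF4 list reached 10.82 on the ATRA 24 h array. Medians of the 8 embryonal carcinoma genes (11.94 and 11.40) and of the 8 fibroblast genes (6.07 and 5.32) were higher on replicate 1 too. Their part in the difference was not tested. This is a description over probe sets of the same arrays, and what sets the vehicle arrays apart was not tested. Results against vehicle are therefore given with both arrays and with each alone.

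Against replicate 2, ATRA arrays lay lower late: the median over the 35 genes was -0.09 at 2 h, -0.09 at 6 h, -0.55 at 24 h and -0.56 at 48 h, and 14 genes at 24 h and 7 at 48 h were at least 2-fold lower (3.13% and 2.68% of all genes). Against replicate 1 the same arrays gave 0.37, 0.40, -0.02 and 0.15. With BMS961 the medians against replicate 2 were 0.04, 0.02, -0.08 and -0.19, and BMS753 and BMS641 stayed between -0.04 and 0.07. Against replicate 1 the 12 BMS arrays lay between 0.40 and 0.65. The level of late ATRA relative to untreated cells thus turned on which control was used.

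**Figure D1:**
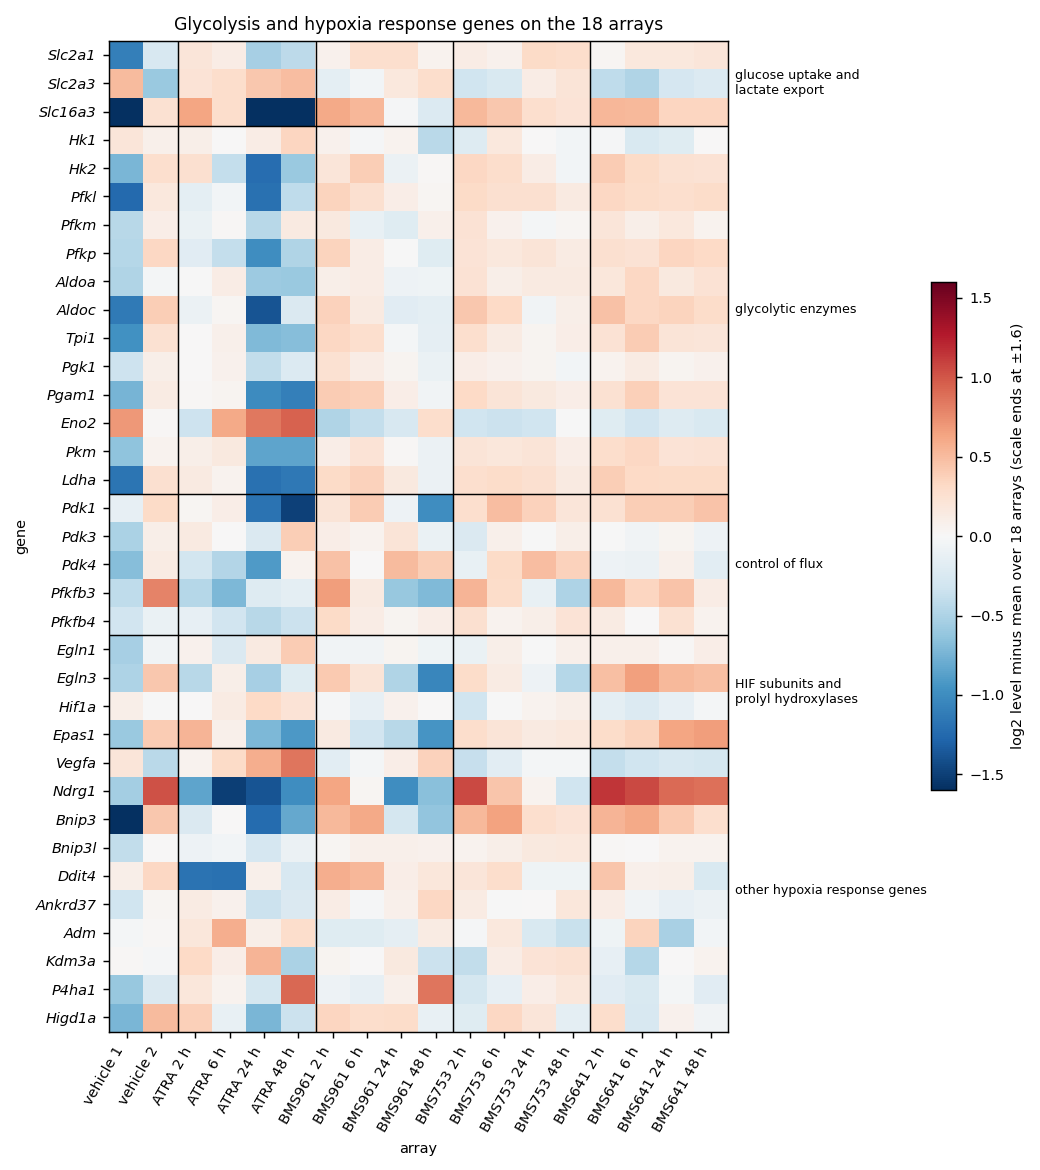
Log2 level of each of the 35 genes (rows, by role) on each of the 18 arrays (columns, by agent and time), shown as the difference from the gene's mean over the 18 arrays; blue is lower and red higher. Slc16a3, Ldha, Pgam1 and Bnip3 are low on vehicle replicate 1 and on the ATRA arrays of 24 and 48 h, and near or above their means on most BMS753 and BMS641 arrays.

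**Figure D2:**
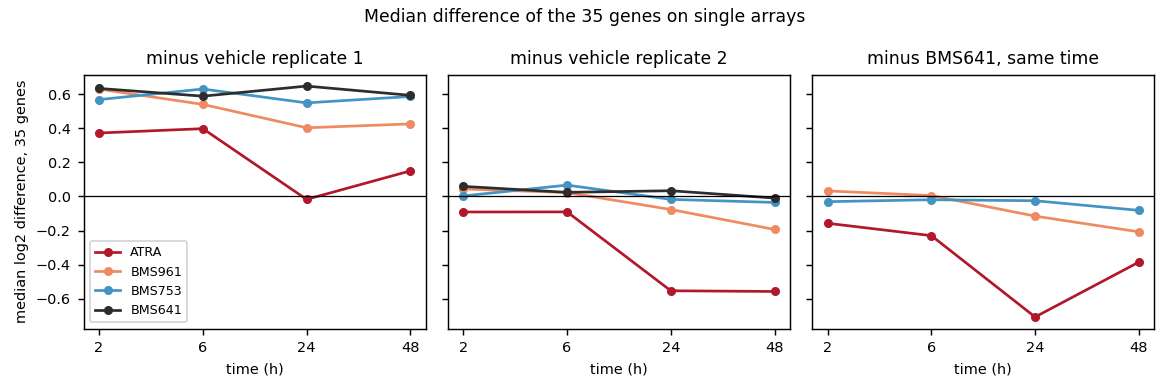
Median log2 difference over the 35 genes (y axis) for each agonist (line) at 2, 6, 24 and 48 h (x axis), against vehicle replicate 1, vehicle replicate 2 and the BMS641 array of the same time. Each point rests on 1 array minus another; ATRA falls from -0.09 at 6 h to -0.55 at 24 h against replicate 2, and from 0.40 to -0.02 against replicate 1.

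Tests used limma, with the 2 and 6 h arrays of an agonist averaged as early and the 24 and 48 h arrays as late, and a gene passed at a Benjamini-Hochberg adjusted p under 0.05 over all 19938 genes. For late ATRA against both vehicle arrays, 2 of the 35 passed, where 4.71% of all genes did (3.31% higher, 1.4% lower): Vegfa, the endothelial growth factor, rose (0.84 ± 0.18 SE, adjusted p = 0.0236) and Pdk1, which shuts pyruvate out of the citrate cycle, fell (-1.42 ± 0.20 SE, adjusted p = 0.00445). Vegfa did not pass without vehicle replicate 2 (0.52, adjusted p = 0.146) or without ATRA 48 h (0.75, adjusted p = 0.19), and over the 25 other settings its adjusted p ran from 0.000447 to 0.19. The median of the 35 was -0.27. Without vehicle replicate 1, 3 passed higher and 16 lower (19 of 35, against 18% of all genes), and without replicate 2 only 1 passed, lower (0.878% of all genes). For early ATRA, 1 of 35 passed (1.25% of all genes, 0.853% higher and 0.396% lower): Ddit4, an inhibitor of mTORC1 induced by hypoxia and stress, fell (-1.41 ± 0.15 SE, adjusted p = 0.0011). That comparison gave 2 higher and 3 lower without replicate 1 (4.2% of all genes) and 9 higher and 1 lower without replicate 2 (2.28%).

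None of the 35 passed against both vehicle arrays with a BMS agonist. Late, limma found 0 with BMS961 (1.26% of all genes; 10 members had an unadjusted p under 0.05), 0 with BMS753 (0.186%; 7) and 0 with BMS641 (0%; 10). Early, it found 0 with BMS961 (0.0401%; 12), 0 with BMS753 (0%; 10) and 0 with BMS641 (0%; 13). Without vehicle replicate 2, 9, 10 and 15 passed late with BMS961, BMS753 and BMS641 (4.09%, 3.71% and 5.14% of all genes), and 17, 15 and 18 passed early (7.23%, 6.46% and 7.35%). Late, all but 1 of these were higher (9 of 9, 10 of 10 and 14 of 15), and early 15, 14 and 16 were. Without replicate 1, 7 passed late with BMS961 and 3 with BMS753 (3.59% and 1.22% of all genes), 5 and 2 of them lower, so the direction turned with the control; limma found 0 late with BMS641 (0.01%) and 0 early with BMS961 (0.0552%), BMS753 (0%) and BMS641 (0%). The 8 comparisons share the same controls, so they are not independent of each other.

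The late fall with ATRA was also measured within its own time course, which uses no vehicle array for the difference. From early to late, 8 of the 35 passed (7.27% of all genes, 4.95% higher and 2.32% lower), 1 higher and 7 lower. Lactate export (Slc16a3), 4 of 13 glycolytic enzymes (Ldha, Pgam1, Pkm and Aldoa), the kinase Pdk1 and the HIF subunit Epas1 fell, and Ddit4 rose. The median was -0.20 over the 35, and -0.70 over the 13 enzymes. By single arrays most of the step lay between 6 and 24 h, where the median was -0.46 and 7 genes were at least 2-fold lower (0.737% of all genes). The count of 8 moved with single arrays: it was 16 without either vehicle array (12.8% of all genes), 0 without ATRA 2 h (0.155%), 3 without ATRA 6 h (1.95%), 6 without ATRA 24 h (10.2%) and 2 without ATRA 48 h (0.692%). Fewer cells of a type and less RNA per cell cannot be told apart in these bulk samples.

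**Figure D3:**
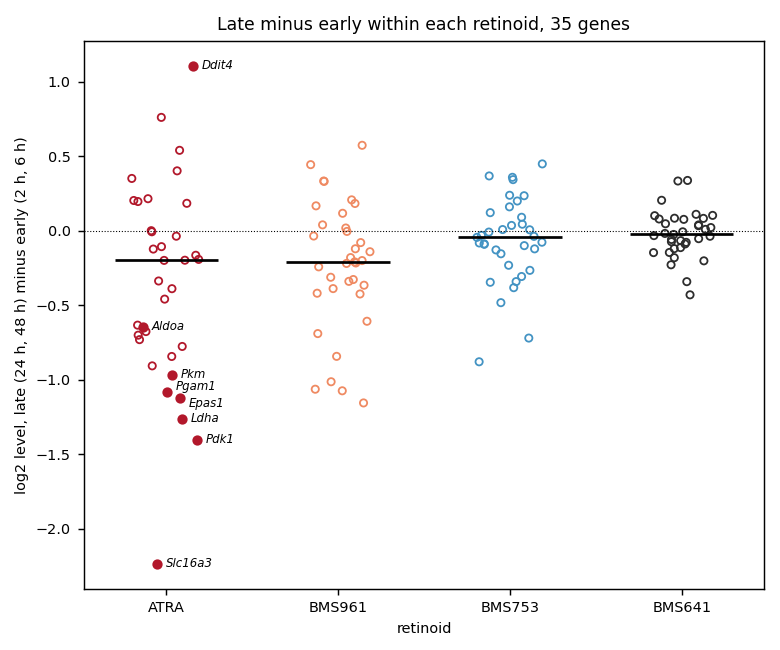
Late (24 and 48 h) minus early (2 and 6 h) log2 change of each of the 35 genes (points) within each agonist (x axis), with the median as a bar and genes that passed filled and named. Slc16a3 (-2.23 with ATRA) and Pdk1 (-1.41) stand lowest and Ddit4 (1.11) highest for ATRA, while no gene passed with the other 3 agonists.

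ATRA was then set against BMS641 at the same dose and the same 4 times, again without vehicle arrays. Here 21 of the 35 passed (19.5% of all genes, 8.09% higher and 11.4% lower), 17 lower with ATRA and 4 higher, and the median was -0.41 (all genes -0.04). By role, 9 of 13 enzymes were lower and 1 higher, 3 of 5 flux-controlling enzymes were lower, 1 of 3 transport genes was lower and 1 higher, 2 of 4 genes of the HIF system were lower and 1 higher, and 2 of the 10 further response genes were lower and 1 higher. At 2, 6, 24 and 48 h the median difference was -0.16, -0.23, -0.71 and -0.38. At 24 h 13 genes were at least 2-fold lower (2.74% of all genes) and at 48 h 8 (2.16%). The late ATRA arrays lay below all 6 late BMS arrays for 19 of the 35 genes (15% of all genes) and above them for 6 (12.6%). The difference between the vehicle arrays was used as replicate 1 minus replicate 2, an order that the design does not set. Taken gene by gene from the difference between ATRA and BMS641, it left a median of 0.24, with 28 of the 35 values above 0. For the late arrays alone the median was 0.18, with 22 above 0 and 13 below. The 7 genes that fell within the ATRA course were all below 0 there: Pdk1 -1.32, Epas1 -0.47, Pgam1 -0.39, Pkm -0.36, Aldoa -0.33, Slc16a3 -0.19 and Ldha -0.03, none of which was tested. These genes were picked by the same late ATRA arrays, so values below 0 were favoured in advance. For the early arrays all 7 were above 0, from 0.19 for Pdk1 to 1.87 for Slc16a3, but so were 29 of the 35 (median 0.38). The choice of the 7 used the early ATRA arrays too, so high early values were likewise favoured in advance.

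**Figure D4:**
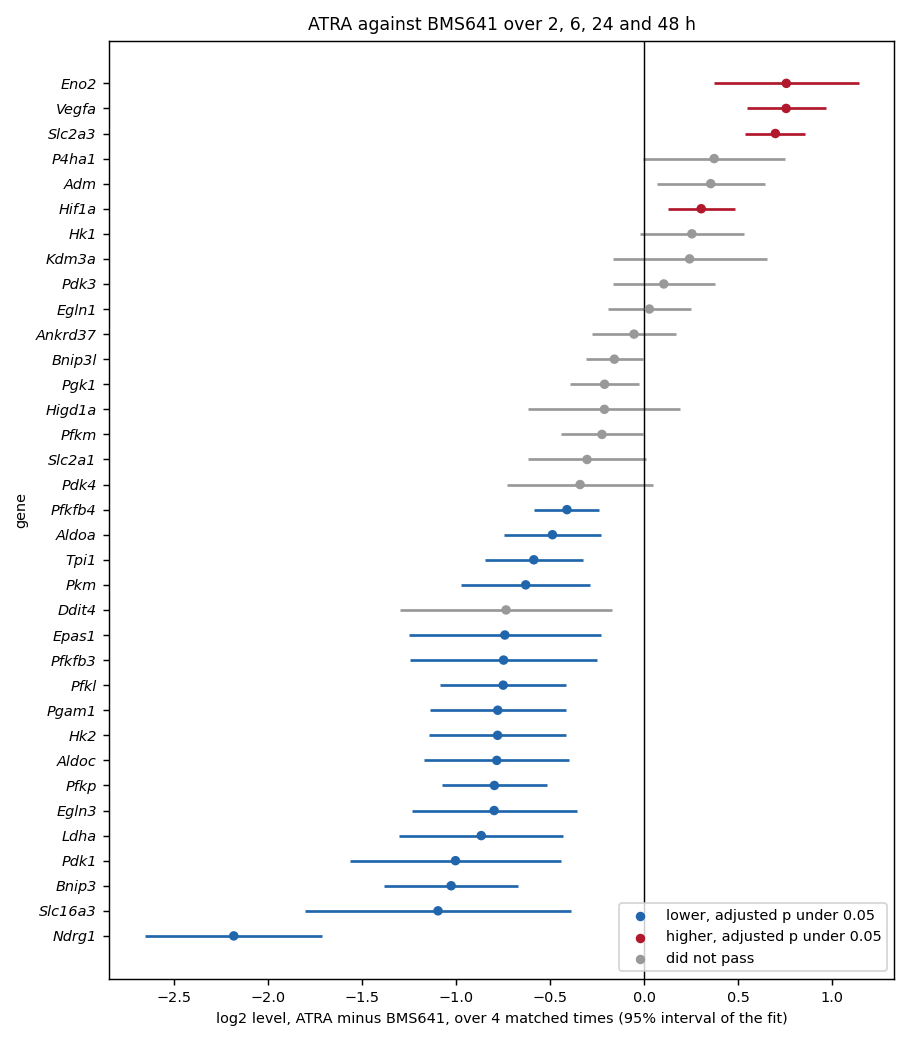
Log2 difference between ATRA and BMS641 over 4 matched times for each of the 35 genes (points), with the 95% interval of the limma fit (bars); blue and red mark genes that passed at an adjusted p under 0.05. Ndrg1 lies lowest at -2.18, 17 genes in all are blue, and Eno2, Vegfa, Slc2a3 and Hif1a are red.

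Among the transport genes, Slc16a3, which exports lactate, made the largest move. In the order 2, 6, 24 and 48 h, and vehicle replicates 1 and 2 last, its levels were 11.13, 10.79, 8.72 and 8.74 with ATRA, 11.11, 11.04, 10.48 and 10.29 with BMS961, 11.02, 10.93, 10.77 and 10.72 with BMS753 and 11.04, 11.02, 10.85 and 10.85 with BMS641, against 8.81 and 10.75 with vehicle. The late ATRA arrays are the lowest of the 16 retinoid arrays by more than 1 unit, and vehicle replicate 1 lies beside them. Slc16a3 fell 4.7-fold from early to late ATRA (-2.23 ± 0.42 SE, adjusted p = 0.012), and was lower with ATRA than with BMS641 over the 4 times (-1.10 ± 0.33 SE, adjusted p = 0.0328). Its early ATRA levels lie close to those of BMS641, so the latter difference comes from 24 and 48 h. That difference passed in 17 of 22 other settings. It was lost with a trended robust prior and without any 1 of the ATRA or BMS641 arrays of 24 and 48 h. Slc2a3, a high-affinity glucose transporter, went the other way at 12.80, 12.87, 13.02 and 13.08 with ATRA, 12.43, 12.54, 12.76 and 12.87 with BMS961, 12.27, 12.34, 12.71 and 12.79 with BMS753 and 12.18, 12.11, 12.32 and 12.37 with BMS641, against 13.09 and 11.99 with vehicle. All 4 ATRA levels exceed those of BMS641 at the same time (0.70 ± 0.07 SE, adjusted p = 0.000115), and vehicle replicate 1 lies beside the late ATRA arrays, at the top of the 18. The broadly expressed transporter Slc2a1 passed in none of the 21 comparisons, with retinoid arrays between 12.13 and 12.97.

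Hexokinase and the phosphofructokinases open the pathway. Hk2, the inducible hexokinase, was at 10.14, 9.50, 8.66 and 9.29 with ATRA, 10.07, 10.27, 9.78 and 9.90 with BMS961, 10.21, 10.16, 10.00 and 9.84 with BMS753 and 10.29, 10.18, 10.12 and 10.11 with BMS641, against 9.15 and 10.15 with vehicle. ATRA was lower than BMS641 (-0.78 ± 0.17 SE, adjusted p = 0.00619). The liver-type phosphofructokinase Pfkl was at 10.49, 10.60, 9.45 and 10.24 with ATRA, 11.00, 10.91, 10.75 and 10.68 with BMS961, 10.95, 10.90, 10.90 and 10.79 with BMS753 and 10.98, 10.94, 10.92 and 10.94 with BMS641, against 9.40 and 10.82 with vehicle, and its lowest retinoid level was that of ATRA 24 h. For the platelet-type Pfkp the levels were 10.94, 10.74, 10.12 and 10.64 with ATRA, 11.47, 11.24, 11.11 and 10.93 with BMS961, 11.34, 11.29, 11.32 and 11.25 with BMS753 and 11.38, 11.35, 11.46 and 11.44 with BMS641, against 10.66 and 11.45 with vehicle. Pfkl (-0.75 ± 0.16 SE, adjusted p = 0.00508) and Pfkp (-0.80 ± 0.13 SE, adjusted p = 0.00117) were both lower with ATRA than with BMS641, whereas the muscle-type Pfkm (-0.22 ± 0.10 SE, adjusted p = 0.145) and Hk1 (0.25 ± 0.13 SE, adjusted p = 0.189) did not pass.

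The aldolases split the phosphorylated sugar and Tpi1 interconverts the products. Aldoa levels were 12.50, 12.62, 11.92 and 11.91 with ATRA, 12.59, 12.62, 12.42 and 12.43 with BMS961, 12.73, 12.59, 12.65 and 12.65 with BMS753 and 12.68, 12.83, 12.66 and 12.73 with BMS641, against 12.02 and 12.47 with vehicle. This fell from early to late ATRA (-0.65 ± 0.14 SE, adjusted p = 0.0228) and was lower than with BMS641 (-0.49 ± 0.12 SE, adjusted p = 0.012). Aldoc, the brain-type aldolase, ran at 7.99, 8.11, 6.70 and 7.85 with ATRA, 8.45, 8.22, 7.90 and 7.93 with BMS961, 8.51, 8.40, 8.03 and 8.18 with BMS753 and 8.55, 8.41, 8.44 and 8.37 with BMS641, against 6.95 and 8.47 with vehicle. The 24 h ATRA array was its lowest retinoid array and part of the fall was regained by 48 h; ATRA was lower than BMS641 (-0.78 ± 0.18 SE, adjusted p = 0.00835), and the change from early to late did not pass (-0.78 ± 0.39 SE, adjusted p = 0.293). Tpi1 levels of 11.88, 11.95, 11.17 and 11.19 with ATRA, 12.20, 12.14, 11.84 and 11.73 with BMS961, 12.14, 12.00, 11.92 and 11.98 with BMS753 and 12.10, 12.28, 12.08 and 12.07 with BMS641, against 10.90 and 12.12 with vehicle gave a lower mean with ATRA than with BMS641 (-0.59 ± 0.12 SE, adjusted p = 0.00469).

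Below the aldolase step, Pgam1, which moves the phosphate group of phosphoglycerate, was measured at 11.37, 11.39, 10.34 and 10.25 with ATRA, 11.75, 11.73, 11.46 and 11.29 with BMS961, 11.67, 11.55, 11.50 and 11.46 with BMS753 and 11.59, 11.73, 11.57 and 11.57 with BMS641, against 10.60 and 11.48 with vehicle. It fell late with ATRA (-1.08 ± 0.21 SE, adjusted p = 0.0145), and read from the probe set whose neighbours lie on its own chromosome the change was -1.03. Pkm, pyruvate kinase, was at 12.10, 12.16, 11.16 and 11.17 with ATRA, 12.11, 12.23, 12.03 and 11.91 with BMS961, 12.21, 12.19, 12.22 and 12.12 with BMS753 and 12.29, 12.34, 12.23 and 12.24 with BMS641, against 11.36 and 12.07 with vehicle. It also fell late with ATRA (-0.97 ± 0.18 SE, adjusted p = 0.0118), by -0.97 with the other probe set too. The neuronal enolase Eno2 was the 1 enzyme of 13 that passed as higher with ATRA, although its difference from BMS641 at 2 h was -0.14. Its mean level of 5.82 kept it out of the setting with brighter genes only. Its levels were 5.49, 6.43, 6.67 and 6.77 with ATRA, 5.34, 5.44, 5.57 and 6.10 with BMS961, 5.50, 5.48, 5.50 and 5.81 with BMS753 and 5.63, 5.51, 5.61 and 5.58 with BMS641, against 6.51 and 5.84 with vehicle, and ATRA exceeded BMS641 (0.76 ± 0.18 SE, adjusted p = 0.0102). Pgk1 did not pass (-0.21 ± 0.09 SE, adjusted p = 0.102).

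Ldha, which turns pyruvate into lactate, was at 13.02, 12.93, 11.69 and 11.73 with ATRA, 13.19, 13.25, 13.03 and 12.79 with BMS961, 13.15, 13.17, 13.14 and 13.02 with BMS753 and 13.27, 13.20, 13.19 and 13.18 with BMS641, against 11.71 and 13.14 with vehicle. Late ATRA and vehicle replicate 1 share the low end, and no BMS array reaches it. The fall from early to late ATRA was 2.4-fold (-1.26 ± 0.32 SE, adjusted p = 0.0361), but it passed in only 8 of 25 other settings. ATRA was lower than BMS641 over the 4 times (-0.87 ± 0.20 SE, adjusted p = 0.00964).

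**Figure D5:**
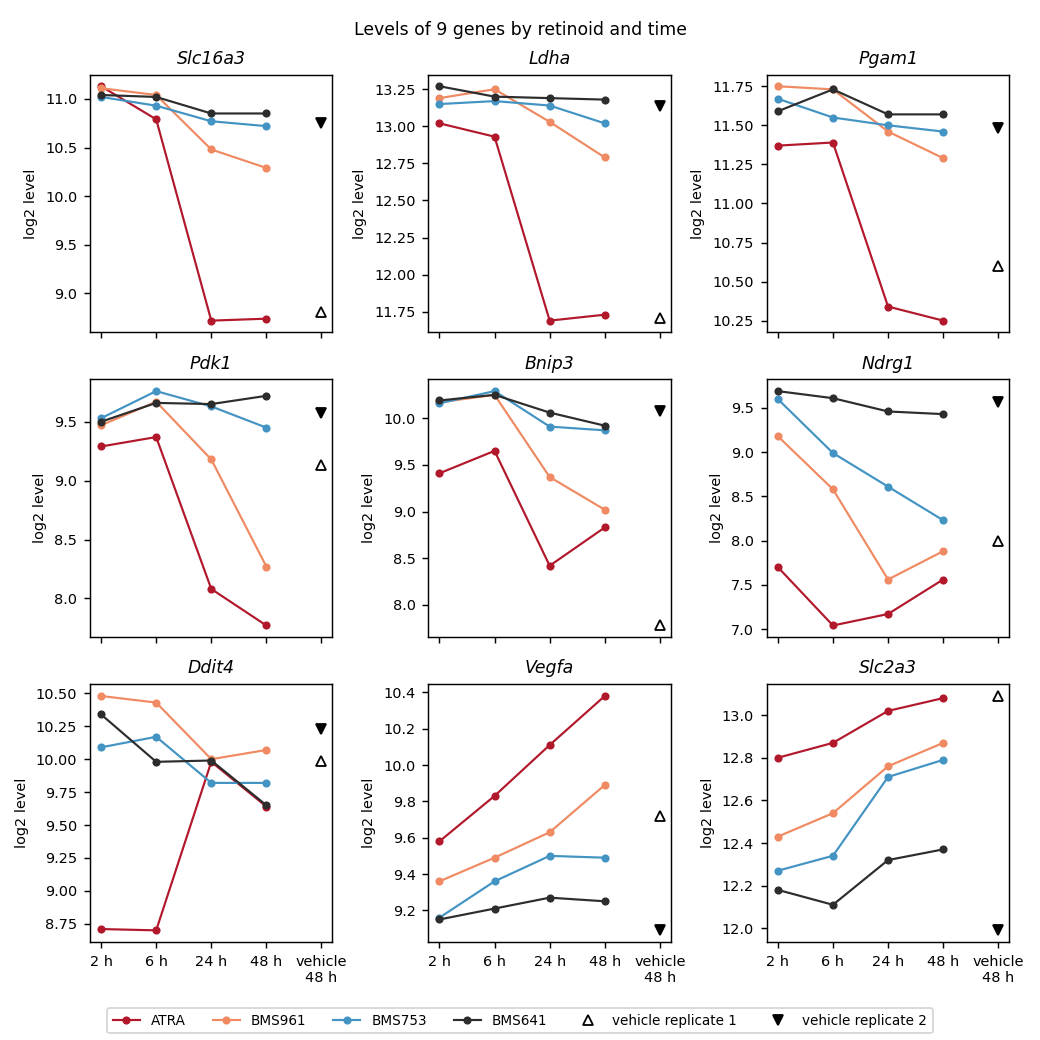
Log2 levels over time (2, 6, 24 and 48 h, x axis) of 9 genes with each agonist (lines), 1 array per point, with the vehicle arrays of 48 h as triangles at the right. Slc16a3, Ldha and Pdk1 drop between 6 and 24 h of ATRA, Ddit4 is low at 2 and 6 h of ATRA and back by 24 h, and Ndrg1 is low with ATRA from 2 h on.

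Of the enzymes that set the flux, Pdk1 gave the firmest fall. Its levels were 9.29, 9.37, 8.08 and 7.77 with ATRA, 9.47, 9.67, 9.18 and 8.27 with BMS961, 9.53, 9.76, 9.63 and 9.45 with BMS753 and 9.50, 9.66, 9.65 and 9.72 with BMS641, against 9.13 and 9.57 with vehicle. Late ATRA is below every other array, both vehicle arrays included, and BMS961 at 48 h is next. The fall from early to late was 2.65-fold (-1.41 ± 0.20 SE, adjusted p = 0.00491), and it passed in 24 of 25 other settings, not without ATRA 2 h (limma, adjusted p = 0.0874; range over the 25 0.000929 to 0.0874). The difference from vehicle passed in all 25. ATRA was lower than BMS641 (-1.0 ± 0.26 SE, adjusted p = 0.0164), which passed in 19 of 22 other settings. Its late fall exceeded that with BMS641 by -1.51, which narrowly missed the threshold in the test of that difference (adjusted p = 0.057); for Slc16a3 that difference was -2.05 ± 0.59 SE (adjusted p = 0.175). Its relatives did not pass in this comparison of ATRA with BMS641: Pdk3 0.10 ± 0.13 SE and Pdk4 -0.34 ± 0.18 SE.

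Pfkfb3 and Pfkfb4 make and remove the sugar bisphosphate that activates phosphofructokinase. Pfkfb3 was at 6.49, 6.22, 6.73 and 6.78 with ATRA, 7.61, 7.08, 6.33 and 6.24 with BMS961, 7.49, 7.23, 6.82 and 6.45 with BMS753 and 7.46, 7.29, 7.40 and 7.06 with BMS641, against 6.54 and 7.74 with vehicle. On single arrays ATRA lay below BMS641 by -0.98 at 2 h and -1.07 at 6 h, more than at 24 h (-0.67) and 48 h (-0.28). Over the 4 times the difference was -0.75 ± 0.23 SE (adjusted p = 0.0377), and it passed in 16 of 22 other settings. Pfkfb4 levels of 5.87, 5.69, 5.56 and 5.66 with ATRA, 6.31, 6.12, 6.04 and 6.11 with BMS961, 6.25, 6.05, 6.09 and 6.22 with BMS753 and 6.13, 6.00, 6.24 and 6.05 with BMS641, against 5.69 and 5.89 with vehicle made a smaller difference of the same sign (-0.41 ± 0.08 SE, adjusted p = 0.00353).

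In the HIF system, the alpha subunits differed in sign. Hif1a was at 10.41, 10.54, 10.72 and 10.63 with ATRA, 10.39, 10.27, 10.48 and 10.41 with BMS961, 10.09, 10.40, 10.46 and 10.50 with BMS753 and 10.25, 10.19, 10.28 and 10.37 with BMS641, against 10.50 and 10.40 with vehicle, a little higher with ATRA than with BMS641 (0.30 ± 0.08 SE, adjusted p = 0.0205). Epas1, the other alpha subunit, was at 7.74, 7.28, 6.48 and 6.28 with ATRA, 7.34, 6.89, 6.76 and 6.26 with BMS961, 7.48, 7.41, 7.34 and 7.37 with BMS753 and 7.49, 7.55, 7.83 and 7.87 with BMS641, against 6.60 and 7.60 with vehicle. It fell late with ATRA (-1.13 ± 0.27 SE, adjusted p = 0.0281), and the BMS961 48 h array was as low. Against BMS641, Epas1 was lower with ATRA (-0.74) and passed in 14 of 22 other settings (limma, highest adjusted p 0.158). The difference in Hif1a passed in 16 of 22, and not with centred arrays (highest adjusted p 0.115 over the 22). Egln3, a prolyl hydroxylase that HIF itself induces, was at 6.89, 7.43, 6.80 and 7.14 with ATRA, 7.75, 7.54, 6.85 and 6.29 with BMS961, 7.62, 7.46, 7.25 and 6.87 with BMS753 and 7.81, 7.98, 7.85 and 7.81 with BMS641, against 6.84 and 7.76 with vehicle, lower with ATRA than with BMS641 (-0.80 ± 0.20 SE, adjusted p = 0.0153). The main oxygen sensor Egln1 did not pass (0.03 ± 0.10 SE, 95% interval -0.19 to 0.25).

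Ndrg1, a hypoxia and stress response gene linked to differentiation, had the largest difference between ATRA and BMS641 of the 35. Its levels were 7.70, 7.04, 7.17 and 7.56 with ATRA, 9.18, 8.58, 7.56 and 7.88 with BMS961, 9.60, 8.99, 8.61 and 8.23 with BMS753 and 9.69, 9.61, 9.46 and 9.43 with BMS641, against 8.0 and 9.57 with vehicle. The order at each time was ATRA, BMS961, BMS753 and BMS641 from lowest to highest, with BMS753 and BMS641 close at 2 h. ATRA was 4.54-fold lower than BMS641 (-2.18 ± 0.22 SE, adjusted p = 9.21e-05). The difference was in place by 2 h, and the change from early to late ATRA did not pass (-0.01 ± 0.38 SE, adjusted p = 0.995). Vehicle replicate 1 lies among the BMS961 levels and replicate 2 among those of BMS641. After the vehicle difference was taken off, Ndrg1 remained lower with ATRA, by -0.71 early and -0.52 late.

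Bnip3 was at 9.41, 9.65, 8.42 and 8.83 with ATRA, 10.17, 10.25, 9.37 and 9.02 with BMS961, 10.16, 10.29, 9.91 and 9.87 with BMS753 and 10.19, 10.25, 10.06 and 9.92 with BMS641, against 7.78 and 10.08 with vehicle. Vehicle replicate 1 is its lowest array by a wide margin. ATRA was lower than BMS641 (-1.03 ± 0.16 SE, adjusted p = 0.00108; -1.16 with the other probe set), while Bnip3l, its mitophagy relative, did not pass (-0.16 ± 0.07 SE, adjusted p = 0.14). Higd1a, a small mitochondrial protein, passed in no comparison but differed at least 2-fold between the vehicle arrays, with levels of 8.10, 7.60, 6.98 and 7.37 with ATRA, 8.06, 7.99, 8.01 and 7.60 with BMS961, 7.52, 8.05, 7.91 and 7.56 with BMS753 and 7.99, 7.46, 7.78 and 7.66 with BMS641, against 6.98 and 8.22 with vehicle. Vegfa levels were 9.58, 9.83, 10.11 and 10.38 with ATRA, 9.36, 9.49, 9.63 and 9.89 with BMS961, 9.16, 9.36, 9.50 and 9.49 with BMS753 and 9.15, 9.21, 9.27 and 9.25 with BMS641, against 9.72 and 9.09 with vehicle. With ATRA it exceeded BMS641 at every time (0.76 ± 0.10 SE, adjusted p = 0.000318), the opposite sign to Ldha and Slc16a3.

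Ddit4 had a course of its own. Its levels were 8.71, 8.70, 9.98 and 9.64 with ATRA, 10.48, 10.43, 10.00 and 10.07 with BMS961, 10.09, 10.17, 9.82 and 9.82 with BMS753 and 10.34, 9.98, 9.99 and 9.65 with BMS641, against 9.99 and 10.23 with vehicle. At 2 and 6 h of ATRA it was lower than on any other array, and by 24 h it was back near vehicle. The rise from early to late ATRA (1.11 ± 0.15 SE, adjusted p = 0.00439) exceeded that with BMS641 by 1.45 ± 0.21 SE (95% interval 0.98 to 1.92, adjusted p = 0.0316). It was the 1 member of 35 for which that difference between agonists passed, where 0.301% of all genes did. The call was fragile: Ddit4 passed in 9 of 25 other settings, and not with centred arrays nor without any 1 of the 16 retinoid arrays other than ATRA 24 h (limma, difference 1.27 to 1.63, adjusted p 0.00707 to 0.271 over the 25). The count of genes was 8 without either vehicle array (3.01% of all genes). Adm, Kdm3a, P4ha1 and Ankrd37 passed in none of the comparisons; P4ha1 was higher on both the ATRA and the BMS961 array of 48 h than on that of BMS641, by 1.1 and 1.03.

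BMS961 was given at 0.1 µM, below the 1 µM of the others. From early to late 0 of 35 passed (0.767% of all genes; 7 members at an unadjusted p under 0.05), with a median of -0.21. The largest differences, which did not pass, were those of Ndrg1 (-1.16 ± 0.38 SE, adjusted p = 0.197), Egln3 (-1.07 ± 0.29 SE, adjusted p = 0.111), Pfkfb3 (-1.06 ± 0.28 SE, adjusted p = 0.109), Bnip3 (-1.01 ± 0.50 SE, adjusted p = 0.427) and Pdk1 (-0.84 ± 0.20 SE, adjusted p = 0.083), and 6 passed without either vehicle array (3.85% of all genes). Over the 4 times its levels and those of BMS641, at unequal doses, differed in 2 of 35 genes (0.461% of all genes, 0.271% higher and 0.191% lower): Slc2a3 was higher (0.41 ± 0.07 SE, adjusted p = 0.0316) and Ndrg1 lower (-1.25 ± 0.22 SE, adjusted p = 0.0283). At 48 h Epas1, Ndrg1, Egln3 and Pdk1 were lower with BMS961 than with BMS641 by -1.61, -1.55, -1.52 and -1.45 on single arrays. The count of 2 ran from 0 to 3 with 1 array left out.

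BMS753 and BMS641 moved no gene of the 35 past the threshold in their own courses. From early to late limma found 0 with BMS753 (0.00502% of all genes; 3 members at an unadjusted p under 0.05) and 0 with BMS641 (0%; 2). The medians were -0.04 and -0.03. Between the 2 agonists over the 4 times 0 passed (0%; 3 at an unadjusted p under 0.05), the largest difference being Ndrg1 (-0.69 ± 0.22 SE, 95% interval -1.17 to -0.22). In the test of late minus early against BMS641, limma found 0 for BMS961 (0.00502% of all genes; 5 members at an unadjusted p under 0.05) and 0 for BMS753 (0%; 0). Across the 4 agonists together, the steps from 2 to 6 h, 6 to 24 h and 24 to 48 h gave 0 each (0% of all genes; 2, 8 and 1 members at an unadjusted p under 0.05), with medians of -0.01, -0.15 and 0.02.

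Other genes of the pathway did not all go with these 35. Of 31 further hypoxia response genes, 4 rose late with ATRA against vehicle and 0 fell (3.31% and 1.4% of all genes): P4ha2 (1.00) and Plod1 (0.95), which modify collagen, Bhlhe40 (0.72), a repressor of the clock, and Gys1 (0.49), glycogen synthase. None of these 4 passed without vehicle replicate 2 (P4ha2 1.00, Plod1 0.59, Bhlhe40 0.57, Gys1 0.35; limma, adjusted p 0.22 to 0.314), and without replicate 1 the list gave 5 higher and 3 lower, P4ha2 not among them (adjusted p = 0.0502). Gys1 also passed as higher than both vehicle arrays with early ATRA (0.62), late BMS961 (0.66) and late BMS753 (0.72). From early to late ATRA 3 rose and 1 fell (4.95% and 2.32% of all genes), Cited2 (1.1), Vldlr (1.00), Plod2 (0.75) and the transferrin receptor Tfrc (-1.99). Against BMS641 3 were higher and 4 lower, a share near that of all genes (8.09% and 11.4%); Hmox1, the heme oxygenase, was lowest (-0.88). Among 20 other genes of glycolysis and pyruvate use, 2 rose late with ATRA against vehicle, Fbp2 (2.87) and Fbp1 (1.48), which run the reverse step of gluconeogenesis, and 0 fell. Without vehicle replicate 2 Fbp1 passed (1.32, limma, adjusted p = 0.0198) and Fbp2 did not (2.38, adjusted p = 0.0911); without replicate 1 both passed. Late BMS961 against both vehicle arrays gave larger changes, Fbp2 3.52 and Fbp1 2.14, which also passed. Against BMS641 2 of the 20 were higher with ATRA and 3 lower, where 8.09% and 11.4% of all genes were. The lactate transporter Slc16a1 (-0.43) and the pyruvate dehydrogenase subunit Pdhb (-0.39) were lower, and Fbp1 (0.99) and Pklr (0.42) higher. In the pentose phosphate pathway 2 of 6 were lower than with BMS641 (Rpe -0.56, Pgd -0.53), and in the citrate cycle 2 of 12 were lower (Suclg1 -0.57, Idh3a -0.37) and 1 higher (Ogdh 0.41), few genes against the same shares. The differences between these lists and the 35 genes were not tested.

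The fall of Ldha, Slc16a3 and Pdk1 was present at 24 h of ATRA, and Pdk1 was lower still at 48 h. The endoderm list median with ATRA was 7.69, 6.64, 7.76 and 10.36 at 2, 6, 24 and 48 h. On the BMS961 48 h array the endoderm median was 9.43, with Ldha at 12.79, Slc16a3 at 10.29, Pdk1 at 8.27 and Epas1 at 6.26. Of the 12 endoderm genes 2 rose from early to late ATRA (4.95% of all genes rose). Of 8 embryonal carcinoma genes 2 fell (2.32% of all genes fell), Tdgf1 (-1.48) and Utf1 (-1.02). With BMS961, where 0.767% of all genes passed, 1 of the 12 rose, Gata6 (3.20), and Tdgf1 (-1.38) and Utf1 (-0.80) fell. The 8 fibroblast genes had a median change of -0.18 from early to late ATRA, but Pdgfra among them went from 5.75 and 5.49 to 6.15 and 10.04 with ATRA and stood at 9.98 on the BMS961 48 h array. Their part in the results was not tested.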

How the data were processed

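Labelled cDNA of the 18 samples was hybridised to Affymetrix whole-transcript arrays. The authors deposited log2 levels for each probe set. The submitters' processing notes name RMA and Affymetrix Expression Console 1.1; the set of arrays normalized as a unit is not given in the sources used here. They were used as deposited, with no filter on low levels. Of 35556 probe sets, 21789 had 1 gene symbol in the platform annotation, 1621 several and 12146 were not listed; 21698 were matched by Entrez number. A gene was read from the probe set with 1 symbol, the brightest where there were several (999 genes).

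In limma 3.58.1 (R 4.3.3), a model of all 18 arrays had 9 group means (vehicle, each agonist early and late) and common steps within early and within late, leaving 7 residual degrees of freedom; its error rests on the vehicle pair and on departures from those steps. The comparison between agonists used the 16 retinoid arrays with agonist and time as factors (9 residual degrees of freedom). Its error rests on departures of each agonist from a time course common to all, so time courses that differ between agonists enter it. The 4 times of an agonist are not replicates of 1 condition. Both fits recovered known changes in data simulated with independent normal noise. The simulation held no time courses that differ between agonists and no shift of a vehicle array, so it does not test the fits under those conditions. P-values measure the spread between these arrays, which may be technical or come from such departures, and not a spread between replicate cultures. The precision is limited by 1 array per agonist and time. The genes, lists and comparisons were chosen with earlier results of these data known, and late minus early and its difference between agonists were added after the values were seen. Values on every array are given for genes that passed in at least 1 comparison or lay at least 2-fold apart between the vehicle arrays; of other lists, up to 4 genes that passed are named. Alternatives were quantile normalization, median centring, brighter genes only, means of probe sets, another probe set for 7 genes (added after the values were seen), a trended robust prior, no common steps and each array left out. Tables used pandas 2.3.3 and numpy 2.4.6 in Python 3.11.15, and figures matplotlib 3.10.9.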

Additional observations from a re-analysis of the deposited data

Results flagged for a closer look

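Ddit4 changed differently with 2 agonists at the same dose. Its late level exceeded its early level with ATRA but not with BMS641, and the difference between these changes was 1.45 ± 0.21 (SE, limma, adjusted p = 0.0316), with the ATRA arrays of 2 and 6 h at 8.71 and 8.70. It passed in 9 of 25 other settings (adjusted p 0.00707 to 0.271), and was lost with centred arrays and without any 1 of the 16 retinoid arrays other than ATRA 24 h.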

How the results depend on the processing

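No paired analysis was possible because only the vehicle group has 2 replicates, so replicate numbers pair no samples; agonists were matched by time, which is a factor of that fit. Counts of the 35 genes that passed depended most on the vehicle pair. With 1 array left out, counts against vehicle ran from 1 to 19 for late ATRA, 0 to 9 for late BMS961, 0 to 10 for late BMS753, 0 to 15 for late BMS641, 1 to 10 for early ATRA, 0 to 17 for early BMS961, 0 to 15 for early BMS753 and 0 to 18 for early BMS641. Late minus early ran from 0 to 16 with ATRA, 0 to 6 with BMS961 and 0 to 1 with BMS753; the excess of ATRA over BMS641 in that change ran from 0 to 8, and was 2 with quantile normalization, 0 with centred arrays and 2 with a trended robust prior. ATRA against BMS641 ran from 14 to 21 and BMS961 against BMS641 from 0 to 3, the latter 1 with quantile normalization and 1 with centred arrays. The median of ATRA minus BMS641 became 0.24 once the vehicle difference was taken off. At 1.5-fold in place of 2-fold, 3 genes were higher and 18 lower in vehicle replicate 1. The causes were not tested. No gene that passed changed sign in any alternative: 701 of its values stayed past the threshold and 104 did not. With 1 array for each agonist and time, differences at single times have no replicate check.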

Other observations

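Genes of amino acid and stress metabolism were measured beside glycolysis. Of 12 genes of the ATF4 and amino acid response, 1 was higher and 3 were lower with ATRA than with BMS641 (limma, Benjamini-Hochberg adjusted p under 0.05), where 8.09% of all genes were higher and 11.4% lower: Slc7a11, the cystine importer, by -0.79, Phgdh and Psat1 of serine synthesis by -0.27 and -0.26, and Ddit3, a stress-induced transcription factor, higher by 0.96. Sesn2, a leucine sensor of the mTORC1 pathway, rose from early to late ATRA (0.88 ± 0.19 SE, adjusted p = 0.0198). Of 8 HIF partners and oxygen sensors, few genes against the same shares, 2 were lower than with BMS641, the prolyl hydroxylase Egln2 (-0.44) and the ubiquitin ligase component Rbx1 (-0.35), and 1 was higher, the ligase scaffold Cul2 (0.36). Arnt2, a partner subunit of HIF, rose from early to late ATRA (0.66 ± 0.15 SE, adjusted p = 0.0229).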
